A study of Homo sapiens with 6 samples.

Results

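Keratins are the intermediate filament proteins of epithelial cells, and the genes described here are the 47 keratin genes with a named array feature among 14884 named genes. A gene was taken as a member where the platform annotation gave its feature a single symbol made of KRT, a number and an optional letter. Keratin-associated proteins and pseudogenes were left out, and a gene with several features was represented by its brightest, judged on all 6 arrays. The 47 members were 26 of type I and 21 of type II. KRT6A, KRT6B, KRT17, KRT34, KRT81, KRT82 and KRT86 were not analysed here.

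Both groups were SUM159 cells, an established line from a human breast carcinoma of triple-negative type, grown in a serum medium with insulin and hydrocortisone. In the decitabine group 3 samples of cells had 1 µM decitabine for 72 h with daily medium changes, and in the untreated group 3 samples had medium without the drug for 72 h. Decitabine (5-aza-2'-deoxycytidine) enters replicating DNA in place of deoxycytidine, where DNA methyltransferases become trapped on it and methylation of CG dinucleotides falls. The titles of the untreated samples also carry the dose, while their descriptions and treatment labels give untreated medium. Whether untreated cells were given a vehicle is not stated, and all values come from this single line.

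A keratin filament is built from dimers of a type I chain, which is acidic, and a type II chain, which is neutral to basic, so that epithelial cells express the types in pairs. Type II genes lie together on chromosome 12 and type I genes on chromosome 17, apart from KRT18, a type I gene at the edge of the type II cluster. In the breast, KRT5 and KRT14 mark basal and myoepithelial cells, and KRT7, KRT8, KRT18 and KRT19 mark luminal cells, whereas hair keratins form the hard fibres of the hair shaft.

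Values are the deposited ones, read as log2 expression, and changes are decitabine minus untreated on that scale with the standard error (SE) of the fit. The log base is not stated in the sources used here, so each fold rests on that reading. Array medians over all 48226 features were 2.98 and 3.03 in decitabine and untreated replicate 1 and 2.29 to 2.42 in the other 4 arrays, so replicate 1 stood apart in both groups. The word rose or fell is used for a gene whose limma p, two-sided and adjusted by the Benjamini-Hochberg method over all 14884 genes, was under 0.05. Separate cultures are not stated for the 3 samples of a group, so each p-value covers the spread among these samples alone, and that spread may be technical.

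KRT5, the type II keratin of basal epithelium, rose, and KRT75, the type II keratin of the companion layer of the hair follicle, fell, while 45 of the 47 members did not pass the test. The 2 calls among 47 members stand against a background of 3.03% of all 14884 genes, 2.01% higher and 1.02% lower. The groups did not overlap for the same 2 members, against 20.1% of all genes, 11.3% higher and 8.74% lower. In all 3 pairs of same-numbered arrays 7 of the 47 members were higher and 6 lower, against 3413 and 3249 of all 14884 genes. In a bulk sample a lower share of cells that express a gene and less RNA per cell cannot be told apart.

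**Figure D1:**
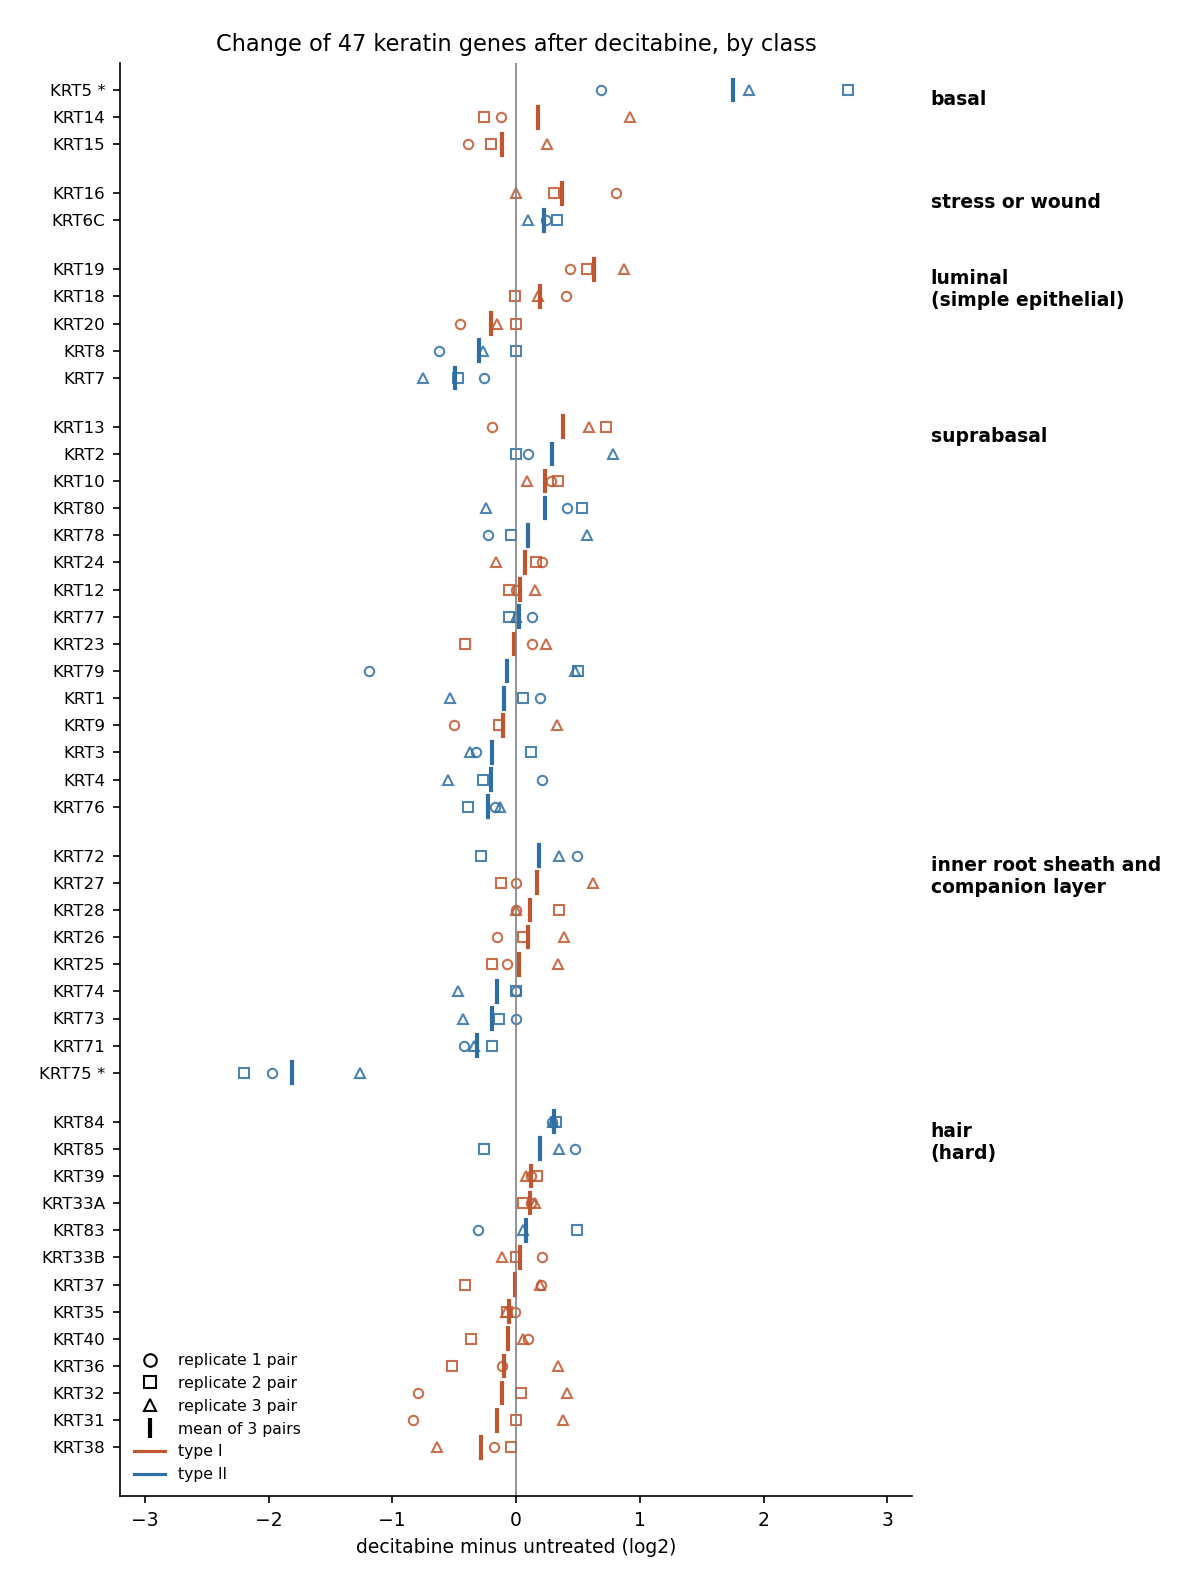
Change of each of the 47 keratin genes (decitabine minus untreated, log2, horizontal axis), grouped by class and ordered by mean change within it, with circles, squares and triangles for the replicate 1, 2 and 3 pairs, bars for the mean, orange for type I and blue for type II. Stars mark KRT5 at 1.75 and KRT75 at -1.81, the members with an adjusted p under 0.05, and the other means lie between -0.49 and 0.63.

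KRT5 (Entrez Gene 3852) had values of 3.66, 5.08 and 4.23 in decitabine replicates 1 to 3, against 2.97, 2.40 and 2.35 in untreated replicates 1 to 3. All 3 decitabine values lay above all 3 untreated values, and decitabine replicate 1 was the lowest of its group while untreated replicate 1 was the highest of its own. The means were 4.32 ± 0.71 in decitabine and 2.57 ± 0.34 in untreated cells (SD, n = 3 each). The change was 1.75 (SE 0.37, 95% interval 0.89 to 2.61), which is 3.36-fold, and the adjusted p from limma was 0.0497. Within same-numbered arrays it was 0.69, 2.68 and 1.88, so the pairs shared a direction and differed in size. The adjusted p missed the threshold without decitabine replicate 2 (0.130) or 3 (0.145) and without untreated replicate 2 (0.197) or 3 (0.165). It was 0.0511 with median centring, and 0.502 and 0.424 without both arrays of replicate 2 or 3.

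KRT75 (Entrez Gene 9119) had values of 5.62, 5.95 and 5.93 in decitabine replicates 1 to 3, against 7.59, 8.15 and 7.19 in untreated replicates 1 to 3. Every decitabine value lay at least 1 log2 unit below every untreated one, and the decitabine values were the closer together. The means were 5.83 ± 0.19 in decitabine and 7.64 ± 0.48 in untreated cells (SD, n = 3 each). The change was -1.81 (SE 0.28, 95% interval -2.45 to -1.17), so the untreated level was 3.51-fold the decitabine level, with a limma adjusted p of 0.0150. It was -1.97, -2.20 and -1.26 within same-numbered arrays. Without decitabine replicate 2 (0.0652) or 3 (0.0605) or untreated replicate 2 (0.0552) the adjusted p missed the threshold, with changes of -1.87, -1.86 and -1.56. Without both arrays of replicate 1, 2 or 3 it was 0.0714, 0.270 and 0.128.

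KRT5 and KRT75 lie close together in the type II cluster. In the order of the RefSeq genes of GRCh38.p14 only the 3 coding genes KRT6B, KRT6C and KRT6A stand between them. KRT6C, a keratin of palms and soles that is nearly identical to KRT6A and KRT6B, so that its feature may not part the copies, had 1.63, 1.42 and 1.10 in decitabine and 1.39, 1.09 and 1.00 in untreated replicates 1 to 3. Its change of 0.22 (SE 0.23, limma adjusted p = 0.888) lay within the spread of the groups, which overlapped. On the outer side of KRT5 the neighbour KRT71 had a change of -0.32 (SE 0.42), and the measured keratin next to KRT75 on the other side, the hair keratin KRT84, had 0.30 (SE 0.32). Neither passed the test. The genes directly beside KRT75 (KRT82 and KRT6B) and KRT6A beside KRT5 were not analysed here.

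**Figure D2:**
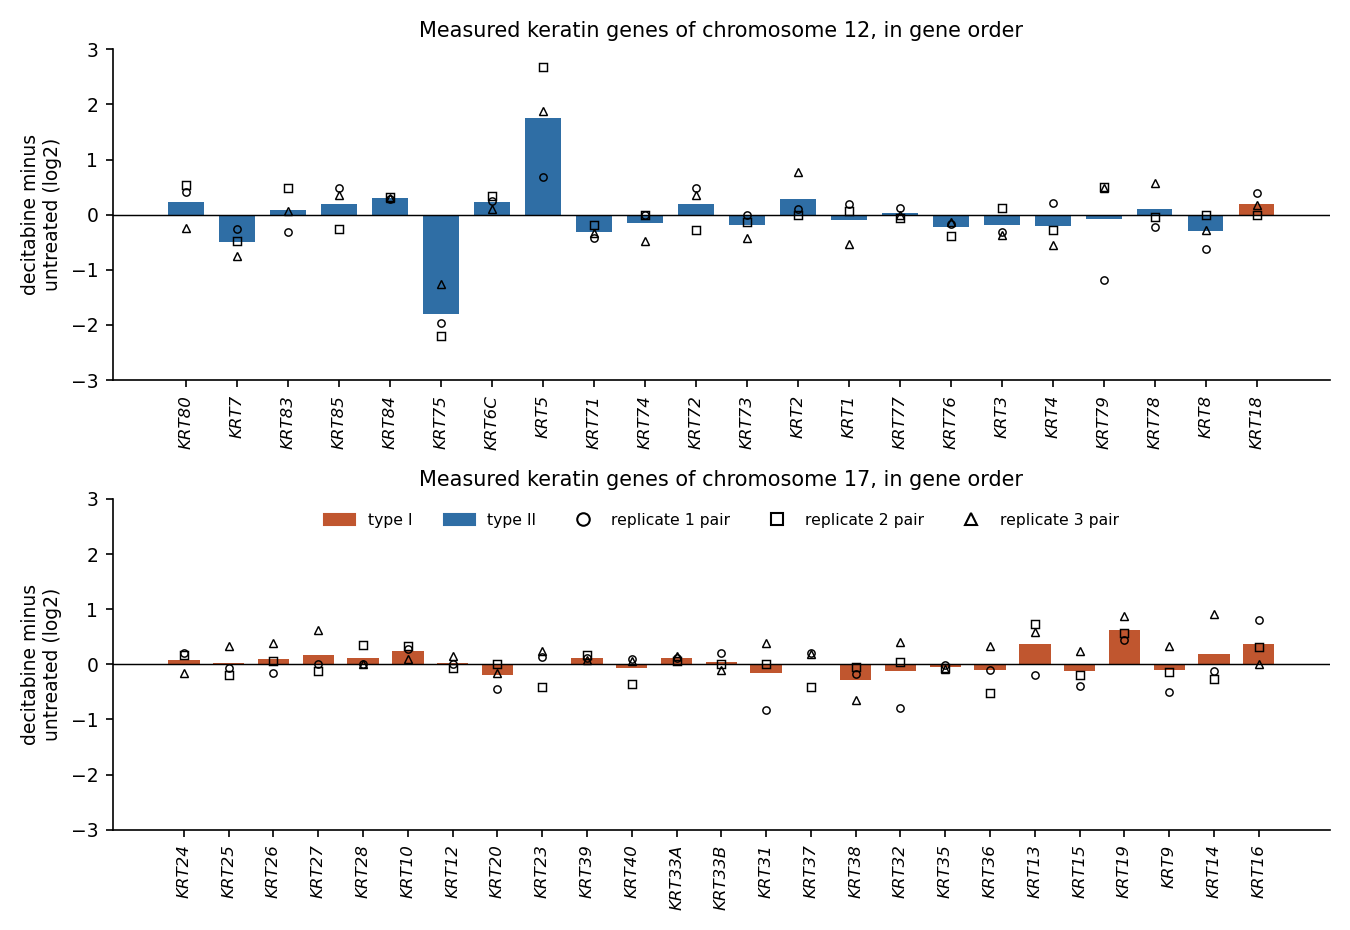
Mean change of each measured keratin gene (decitabine minus untreated, log2, vertical axis) as bars in gene order along chromosome 12 (upper panel) and chromosome 17 (lower panel), with symbols for the 3 same-numbered pairs. KRT75 at -1.81 and KRT5 at 1.75 are separated by KRT6C at 0.22 in the type II cluster, and the type I genes of chromosome 17 lie between -0.29 and 0.63.

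The promoter windows of these genes are shown because the drug acts on CG dinucleotides, and both called keratins lie in the same cluster. Each line gives the 250 bases before the RefSeq start of the gene in GRCh38.p14, 5′ to 3′ on the minus strand, with CG in capitals. The windows are chr12:52520395-52520644 for KRT5 and chr12:52434372-52434621 for KRT75.
KRT5: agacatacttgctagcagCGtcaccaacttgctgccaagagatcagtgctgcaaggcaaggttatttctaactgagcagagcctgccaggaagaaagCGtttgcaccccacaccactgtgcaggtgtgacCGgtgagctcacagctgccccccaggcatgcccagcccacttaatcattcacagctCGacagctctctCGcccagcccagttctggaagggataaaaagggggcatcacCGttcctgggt
KRT75: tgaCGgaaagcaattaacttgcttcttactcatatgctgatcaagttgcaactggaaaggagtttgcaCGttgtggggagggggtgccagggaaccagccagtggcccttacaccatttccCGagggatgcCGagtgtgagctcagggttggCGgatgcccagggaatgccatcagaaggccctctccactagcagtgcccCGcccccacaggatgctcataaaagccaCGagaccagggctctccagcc

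The KRT5 window held 6 CG dinucleotides, the nearest of them 11 bases before the start and the farthest 232. The KRT75 window held 7, at 21 to 247 bases before the start. No window was available for 15 of the 47 members, KRT7, KRT14, KRT18 and KRT19 among them. The other 32 had 36 windows in all, since KRT40 and KRT85 have several starts, some of which overlap. Their median was 2 CG with a range of 0 to 7, against a median of 11 over all 35116 RefSeq windows of the same length. At least 6 CG were found in 6 of the 36 keratin windows and in 61.9% of all windows. KRT75 had the highest count among the members with a window. The available keratin windows thus held few CG as a group. Those of KRT5 and KRT75 were at the upper end of these windows and somewhat below the middle of all windows. Methylation itself was not measured.

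The sequence TATAAA, the core of a TATA box, was found on either strand in 19 of the 36 keratin windows (52.8%), against 10.7% of all windows. GGGCGG, the core of an Sp1 site, was found in 4 of them (11.1%) against 42.6% of all windows, the KRT75 window being among the 4. GCCNNNGGC, the form bound by AP-2 factors, was found in 5 (13.9%) against 19.8%, again with KRT75 among them, and TGANTCA, the form bound by AP-1, in 0 (0%) against 6.57%. None of the 4 motifs was in the KRT5 window. Both strands were searched, matches of different motifs may overlap, and paralogous windows are related in sequence, so these shares are descriptions.

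Of the 3 basal keratins only KRT5 rose. KRT14, its type I partner in basal cells, had 2.50, 2.06 and 3.22 in decitabine and 2.62, 2.32 and 2.30 in untreated replicates 1 to 3. Decitabine replicate 3 was the highest of the 6 arrays and decitabine replicate 2 the lowest, and the groups overlapped. The change of KRT14 was 0.18 (SE 0.31, 95% interval -0.53 to 0.89, limma adjusted p = 0.980), and its direction turned without decitabine replicate 3 (-0.13). KRT15, a type I keratin of basal cells and of the hair follicle bulge, had a difference of -0.11 (SE 0.26), with 2.20 to 2.61 in decitabine and 2.21 to 3.0 in untreated cells. The values of KRT5 and KRT14 are thus side by side at 1.75 and 0.18, and the difference between them was not tested.

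None of the 5 luminal keratins rose or fell in the fit without pairing, and their median change was -0.20, against -0.02 over all genes. KRT19, a type I keratin without a tail domain, had 3.92, 3.59 and 3.11 in decitabine and 3.48, 3.02 and 2.24 in untreated replicates 1 to 3. Each decitabine array was above the untreated array of its number, by 0.44, 0.57 and 0.87, while the groups overlapped. Its change of 0.63 (SE 0.35, 95% interval -0.19 to 1.45) had a limma adjusted p of 0.548. With the replicate number as a block the adjusted p was 0.0380 and the interval 0.29 to 0.97, in a fit that called 13.2% of all genes (7.79% higher and 5.37% lower) and 3 of the 47 members.

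KRT7, the type II keratin of ducts and glands, had 4.98, 5.70 and 5.65 in decitabine and 5.24, 6.17 and 6.40 in untreated replicates 1 to 3. Every decitabine array was below the untreated array of its number, by differences of -0.26, -0.47 and -0.75, and replicate 1 was the lowest of both groups. The change was -0.49 (SE 0.35, 95% interval -1.30 to 0.31), with a limma adjusted p of 0.709, and 0.0797 with the block. KRT20, a type I keratin of gut and urothelium, had a difference of -0.20 (SE 0.34), with 1.58 to 2.39 in decitabine and 1.73 to 2.84 in untreated cells.

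KRT8 and KRT18 are the pair of simple epithelia. KRT8, the type II member, had 3.83, 3.71 and 3.41 in decitabine and 4.45, 3.71 and 3.68 in untreated replicates 1 to 3, with the same value in both arrays of replicate 2. Its change was -0.30 (SE 0.27, 95% interval -0.92 to 0.32). KRT18, the type I member, had 7.97, 7.95 and 7.82 in decitabine and 7.57, 7.96 and 7.64 in untreated replicates 1 to 3. The groups of both genes overlapped, and the change of KRT18 was 0.19 (SE 0.20, 95% interval -0.28 to 0.66), with limma adjusted p-values of 0.848 for KRT8 and 0.905 for KRT18.

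KRT18 was the only member with more than a single feature, and its features differed in place. The brighter feature, which stood for the gene, is numbered among features that name genes of chromosome 3 (8 of 8 neighbours), whereas KRT18 lies on chromosome 12. The other feature, numbered next to KRT7 with 8 of 8 neighbours on chromosome 12, had 5.31, 4.59 and 4.70 in decitabine and 4.76, 4.28 and 4.45 in untreated replicates 1 to 3. Its difference between the group means was 0.37 (0.55, 0.31 and 0.25 in the pairs), a value with no test. KRT18 is known to have many processed pseudogenes, so which copy the brighter feature reads is uncertain. For the other 47 of the 48 member features most neighbours lay on the chromosome of the gene.

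**Figure D3:**
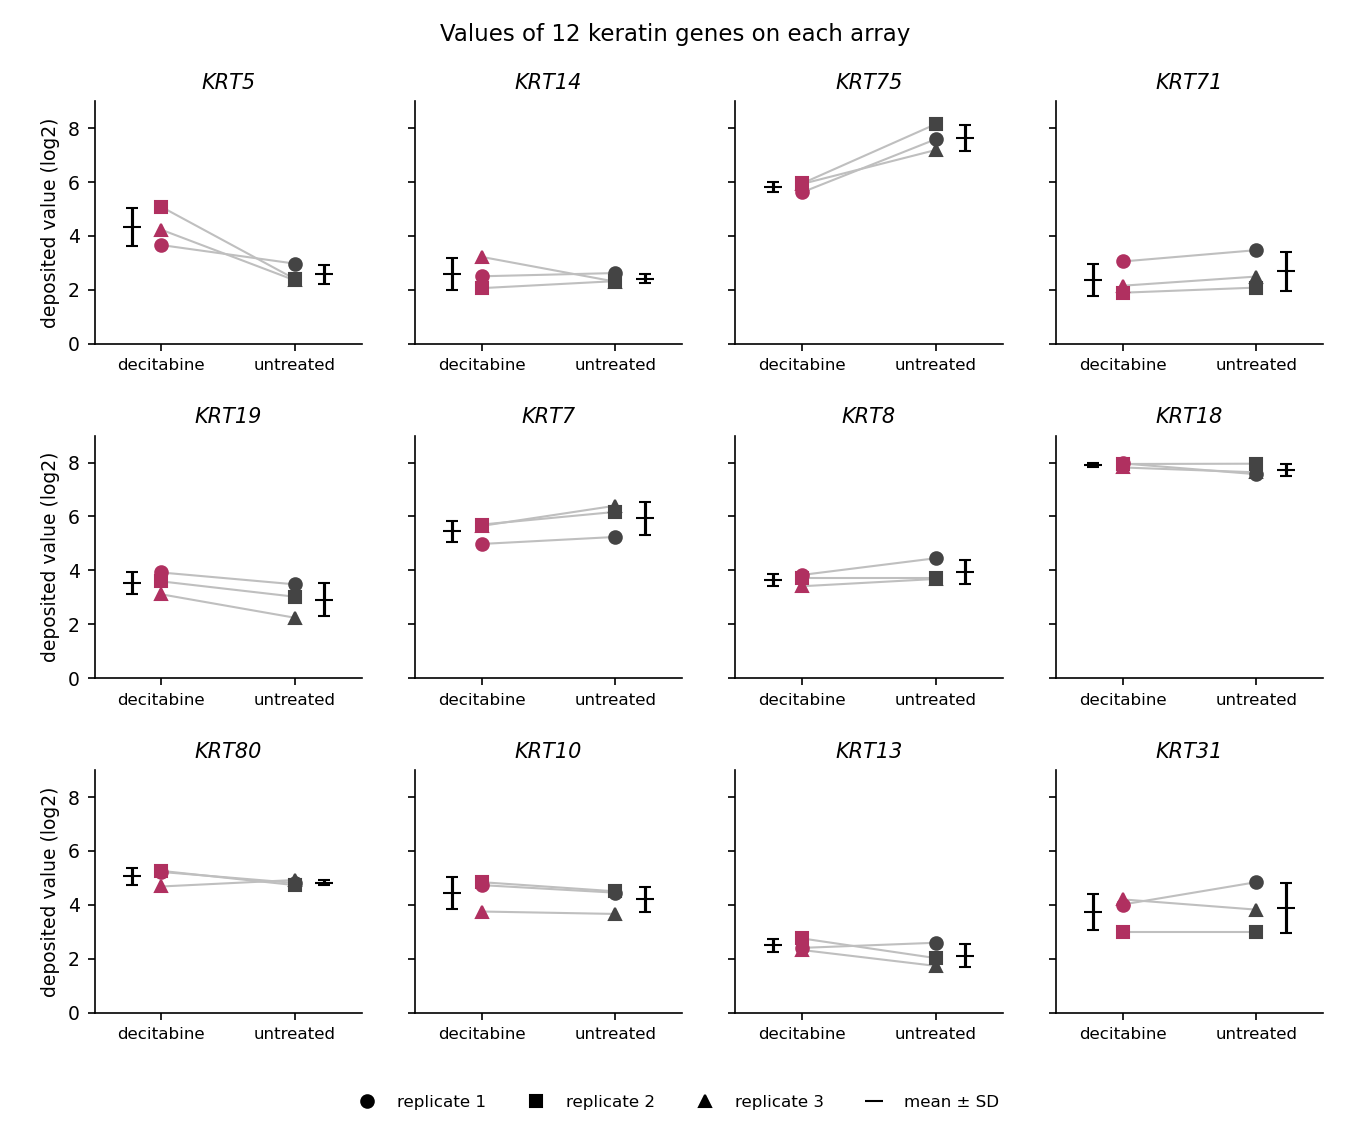
Deposited log2 values (vertical axis) of 12 keratin genes on each array, decitabine in red on the left and untreated in grey on the right, with marker shape for the replicate number, lines between same-numbered arrays and black bars for mean ± SD (n = 3). KRT5 lies higher and KRT75 lower in all 3 decitabine arrays, the lines of KRT19 and KRT7 run alike in each pair while their groups overlap, and levels of different genes cannot be compared on an array.

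The stress keratins are induced in wounded and hyperproliferative epidermis, and 2 of the 5 listed were measured. KRT16, the type I partner of the KRT6 chains, had 3.38 to 4.68 in decitabine and 3.38 to 3.87 in untreated cells, a difference of 0.37 (SE 0.35), and KRT6C is described above. Neither passed the test.

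Among 15 keratins of suprabasal and other differentiated epithelia no member rose or fell, with a median change of 0.02 and a range of -0.23 (KRT76, a keratin of the palate) to 0.38 (KRT13). KRT13, a type I keratin of internal stratified epithelia, had 2.40, 2.75 and 2.32 in decitabine and 2.59, 2.02 and 1.73 in untreated replicates 1 to 3, and overlapped between groups. Its usual type II partner KRT4 had a difference of -0.20 (SE 0.25). KRT10, the type I keratin of the upper epidermis, had 4.73, 4.84 and 3.75 in decitabine and 4.45, 4.5 and 3.66 in untreated replicates 1 to 3. Its differences were positive in all 3 pairs (0.28, 0.34 and 0.09), with a change of 0.24 (SE 0.36, 95% interval -0.59 to 1.07), while that of its partner KRT1 was -0.09 (SE 0.27). KRT80, a type II keratin found in many epithelia, had 5.22, 5.26 and 4.68 in decitabine and 4.81, 4.73 and 4.92 in untreated replicates 1 to 3, a difference of 0.23 (SE 0.23) with pair 3 of opposite sign to the others. The corneal pair KRT3 and KRT12 had differences of -0.19 (SE 0.33) and 0.03 (SE 0.18).

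The inner root sheath and companion layer sheathe the growing hair, and 9 of their keratins were measured. KRT75 fell and the other 8 did not pass the test. KRT71, a type II keratin of the inner root sheath, had 3.05, 1.89 and 2.15 in decitabine and 3.47, 2.08 and 2.49 in untreated replicates 1 to 3. It was lower in each pair (-0.42, -0.19 and -0.34), but replicate 1 was high in both groups and the groups overlapped (change -0.32, limma adjusted p = 0.955, and 0.162 with the block). The median change of the class was 0.03, and apart from KRT75 and KRT71 its members lay between -0.19 (KRT73) and 0.19 (KRT72).

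Hair keratins gave no call. Of the 17 listed, 13 were measured, 10 of type I and 3 of type II, and 6 had a change above 0 and 7 below. Their changes had a median of -0.01 (same-numbered pairs 0.10, 0.00 and 0.15) and a range of -0.29 (KRT38) to 0.30 (KRT84). KRT84, a hard keratin of tongue papillae, was higher in each pair by 0.29, 0.32 and 0.30, but the groups overlapped and the adjusted p was 0.903, or 0.159 with the block. KRT31, a type I keratin of the hair cortex, had 4.01, 2.98 and 4.20 in decitabine and 4.84, 2.98 and 3.82 in untreated replicates 1 to 3, with pairs of -0.83, 0.00 and 0.38. KRT37, named after its values were seen, had the widest error of the family, an SE of 0.80, with 3.66, 0.68 and 2.48 in decitabine and 3.46, 1.09 and 2.29 in untreated replicates 1 to 3, so the replicate numbers differed far more than the groups. KRT33A and KRT33B, and KRT83 with the unanalysed KRT81 and KRT86, are close copies whose features may not part them.

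Type I and type II keratins were set side by side as counts. Of the 26 type I genes none passed the test (KRT19 did with the block), 15 had a change above 0 and 11 below, and the median was 0.03 (0.00, -0.01 and 0.19 in the pairs, rounded). Of the 21 type II genes KRT5 rose and KRT75 fell, 10 had a change above 0 and 11 below, and the median was -0.07 (0.00, 0.00 and -0.13 in the pairs). The median over all genes was -0.02. The range was -0.29 to 0.63 in type I and -1.81 to 1.75 in type II, and the widest values of type II are those of the 2 called genes. The types were not tested against each other, and the medians changed sign when single arrays were left out.

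Most members had low deposited values, which depend on the probe as well as on the transcript and give no order of expression between genes. The mean over the 6 arrays was above the median of all genes for 8 of the 47, namely KRT7, KRT8, KRT10, KRT16, KRT18, KRT31, KRT75 and KRT80, and KRT5 was among the 39 below it. No measure of background was used, so a change from a low level holds only for the deposited values. The SE of a change ran from 0.18 (KRT12) to 0.80 (KRT37) with a median of 0.30. Without the block, the 95% interval lay inside a 2-fold change either way for 30 of the 45 members without a call. For the other 15, KRT7, KRT10, KRT13, KRT16, KRT19 and KRT31 among them, it reached beyond. With the block the intervals of these 15 also lay inside a 2-fold change, such as -0.85 to -0.14 for KRT7 and -0.41 to 0.40 for KRT37. Of the 141 comparisons of a member between same-numbered arrays 14 were identical to the second decimal (9.93%), against 0 of 282 between arrays of different number. Over all features the identical share was 6.44% to 8.28% and 0.42% to 0.83%.

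Genes that work with keratins, and genes of other intermediate filaments with the nuclear lamins, were taken from 8 lists of 160 measured genes in all. Of these 5 rose and 1 fell (6 of 160, against 3.03% of all genes), or 11 and 4 with the block. The blocked count is 15 of 160 (9.38%), against 13.2% of all genes in that fit. Desmosomes are the junctions to which keratin filaments are tied at the cell surface. Of 14 measured members 3 rose and none fell, against 2.01% of all genes higher and 1.02% lower. PKP2 (plakophilin 2), a desmosomal plaque protein, had 7.36, 7.27 and 7.61 in decitabine and 5.08, 4.33 and 5.29 in untreated replicates 1 to 3. Its groups were far apart, and it rose by 2.51 (SE 0.28, limma adjusted p = 0.00434). DSG3 (desmoglein 3), a desmosomal cadherin of basal keratinocytes, had 4.49, 4.36 and 4.23 in decitabine and 2.51, 2.02 and 2.00 in untreated replicates 1 to 3. It rose by 2.18 (SE 0.22, limma adjusted p = 0.00276). Each untreated value of DSG3 lay below the median of all features on its array, so the limit given for low levels applies. DSG3 was not tested with the dimmer genes left out. PKP2 and DSG3 passed in each fit that left out a single array. Without both arrays of replicate 2, or both of replicate 3, none of the 160 genes passed.

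JUP (plakoglobin), which links desmosomal cadherins to desmoplakin, had 6.55, 6.45 and 7.14 in decitabine and 5.19, 4.91 and 5.47 in untreated replicates 1 to 3. The groups did not overlap, and JUP rose by 1.52 (SE 0.26, limma adjusted p = 0.0227). Its adjusted p missed the threshold without decitabine replicate 2 (0.0682) or 3 (0.0852), without untreated replicate 2 (0.120) or 3 (0.0522) and with median centring (0.0506). DSP (desmoplakin), which binds the filaments themselves and was named after its values were seen, had 6.05, 6.75 and 6.72 in decitabine and 4.58, 5.56 and 6.13 in untreated replicates 1 to 3. Its change was 1.08 (SE 0.40) with an adjusted p of 0.257, and 0.0197 with the block, under which 5 of the 14 desmosome genes were higher, against 7.79% of all genes. These 5 include CDSN (corneodesmosin), also named after its values were seen, at 0.76 (SE 0.37). Its limma adjusted p was 0.435 without the block and 0.0247 under it. The desmosome list had a median of 0.07, so the called members stood apart from most of their list.

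**Figure D4:**
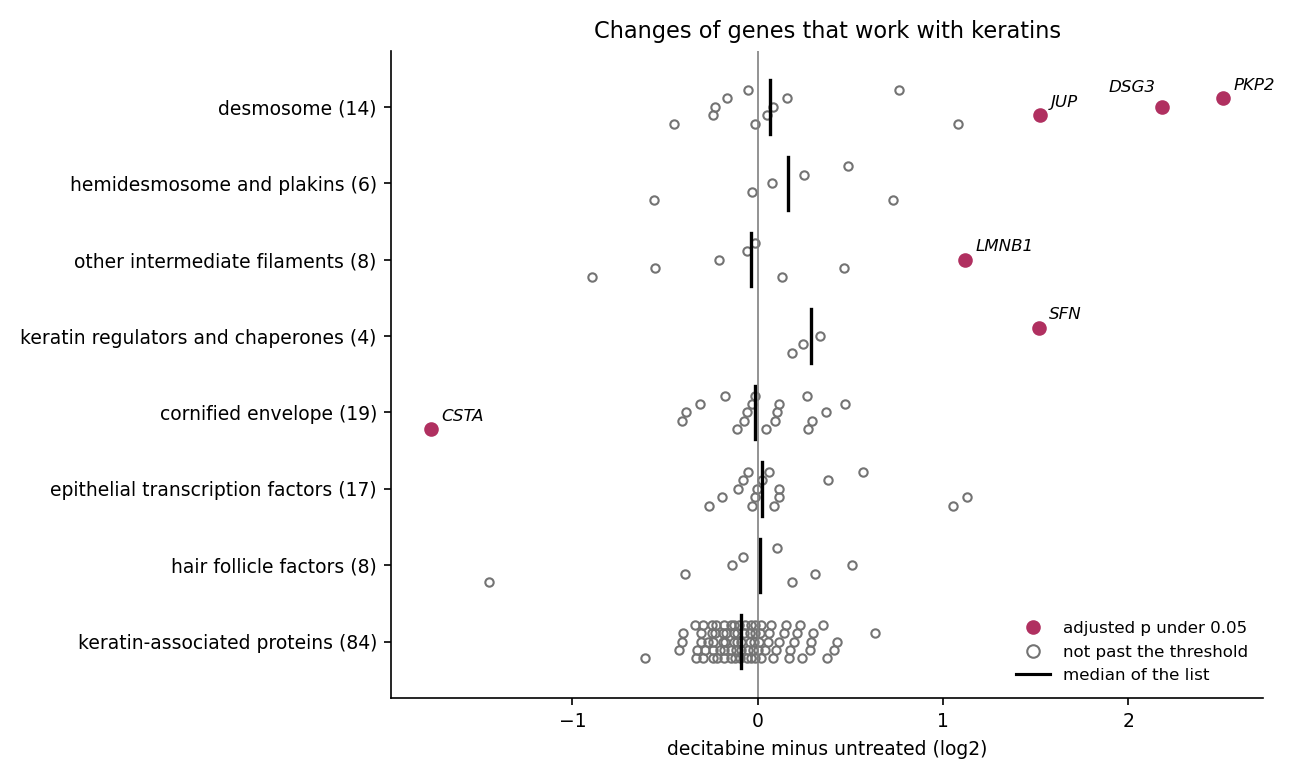
Change (decitabine minus untreated, log2, horizontal axis) of each measured gene in 8 lists of genes that work with keratins or encode other intermediate filaments and lamins, with the number measured in brackets, filled points for genes with an adjusted p under 0.05 and a black line for the median of each list. PKP2, DSG3, JUP, SFN and LMNB1 lie at 1.12 to 2.51, CSTA at -1.76, and the list medians at -0.09 to 0.29.

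None of 6 measured hemidesmosome and plakin genes passed the test, with a median change of 0.16. With the block 2 of the 6 did, against 13.2% of all genes, and both were named after their values were seen. These were PPL (periplakin), which ties filaments to the cell envelope, at 0.73 (adjusted p = 0.0481) and, in the other direction, CD151, a tetraspanin of hemidesmosomes, at -0.56 (adjusted p = 0.0329). Of 8 other intermediate filament genes 1 rose, against 2.01% of all genes. This was LMNB1, the nuclear lamin B1, at 1.12 (SE 0.21, limma adjusted p = 0.0335), with 7.26 to 7.70 in decitabine and 6.26 to 6.54 in untreated cells. It lost the call without decitabine replicate 2 (0.156) or 3 (0.137), without untreated replicate 1 (0.0663), 2 (0.125) or 3 (0.113) and with median centring (0.174). With the block DES (desmin), the muscle intermediate filament, also named after its values were seen, was lower (-0.89, adjusted p = 0.0429, and 0.399 without the block). The blocked fit called 5.37% of all genes lower. VIM (vimentin), the intermediate filament of mesenchymal cells, had 8.66, 8.79 and 8.97 in decitabine and 9.68, 9.13 and 9.27 in untreated replicates 1 to 3. All 3 decitabine values were below the untreated ones, but the change of -0.55 (SE 0.22) had an adjusted p of 0.317.

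Of 4 measured keratin regulators and chaperones 1 rose, against 2.01% of all genes. This was SFN (stratifin, 14-3-3 sigma), an epithelial adaptor that binds keratins, at 1.52 (SE 0.25, limma adjusted p = 0.0195). It had 7.76, 8.10 and 8.57 in decitabine and 6.53, 6.58 and 6.77 in untreated replicates 1 to 3, with no overlap. It lost the call without decitabine replicate 2 (0.0877) or 3 (0.0702), without untreated replicate 2 (0.106) or 3 (0.0648) and with median centring (0.0670). Of 19 measured cornified envelope genes none rose and 1 fell, against 2.01% of all genes higher and 1.02% lower. The gene that fell was CSTA (cystatin A), a protease inhibitor of the cornified layer. CSTA had 4.94, 5.02 and 5.13 in decitabine and 6.81, 6.82 and 6.75 in untreated replicates 1 to 3, a change of -1.76 (SE 0.19, limma adjusted p = 0.00333) that passed in each fit without a single array. It did not pass without both arrays of replicate 2 or both of replicate 3.

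None of 17 measured epithelial transcription factors passed the test (median 0.02), and 3 were higher with the block, against 7.79% of all genes. These were SOX9, GRHL1 and EHF, named after their values were seen. GRHL1, a grainyhead-like factor, had a difference of 1.06 (SE 0.33), for which limma gave an adjusted p of 0.169 without the block and 0.00628 under it. In the same order limma gave 0.0629 and 0.0177 for SOX9, at 1.13 (SE 0.26). For EHF, at 0.57 (SE 0.49), it gave 0.823 and 0.0415. TP63, the master regulator of KRT5 and KRT14 in basal cells, was not analysed here, and neither was CDH1. None of 8 hair follicle factors passed the test, and TRPS1, a GATA-type repressor also named after its values were seen, had a difference of -1.45 (SE 0.31), with adjusted p-values of 0.0529 without the block and 0.0333 under it. TRPS1 was the only gene of the 8 called with the block, in a fit that called 5.37% of all genes lower. None of 84 measured keratin-associated proteins, the matrix proteins of the hair shaft, passed in either fit, with a median of -0.09 and a range of -0.61 to 0.63.

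Markers of other cells were read beside these results. The 6 measured basal epithelial markers include the keratins KRT1, KRT5, KRT10 and KRT14, so their sum in part restates values given above. Their log2 values summed to 19.3 to 20.9 in decitabine and 14.7 to 17.4 in untreated arrays. Of the 6, 2 rose, KRT5 and DSG3, against 2.01% of all genes, and both calls are those described above. The other 4 summed to 10.82 to 12.5 in decitabine and 10.35 to 11.96 in untreated arrays, which overlap. The 7 measured luminal markers, likewise with the keratins KRT8, KRT18 and KRT19 among them, summed to 27.8 to 31.3 in decitabine and 26.6 to 30.0 in untreated arrays. Of them 3 had a change above 0 and 4 below, with a median of -0.08. None was called without the block, and with it 2 were higher, KRT19 and EPCAM, against 7.79% of all genes. EPCAM, an epithelial adhesion molecule among them, had 4.37, 4.12 and 3.63 in decitabine and 3.51, 2.77 and 2.55 in untreated replicates 1 to 3 (change 1.10, adjusted p = 0.127, and 0.00829 with the block). The 5 mesenchymal markers summed to 29.0 to 29.5 in decitabine and 29.5 to 31.3 in untreated arrays, with no call without the block. With it ZEB1, a repressor of epithelial genes, was lower (-0.51, adjusted p = 0.0438), in a fit that called 5.37% of all genes lower. Of the 5, 3 had a change below 0 and 2 above, FN1 (0.19) and DCN (0.04). The 2 leukocyte and 3 endothelial markers gave no call without the block. With it CD14, a monocyte marker, was higher (0.72, adjusted p = 0.0247), against 7.79% of all genes. LYZ, the other leukocyte marker, had a change of -0.09 and passed in neither fit. The part of all these markers in the keratin results was not tested.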

How the data were processed

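Total RNA of 6 samples was labelled with biotin and read on single-colour arrays. The values deposited by the authors were read as log2 expression. The submitters' processing notes name the Transcriptome Analysis Console. Its version, filters, normalization and genome build were not given in the sources used here. Reading them as log2 comes from the range of 0.17 to 12.89. Of 48226 features 16098 carried a single symbol, updated by Entrez ID through RefSeq (GRCh38.p14), giving 14884 genes. The number of arrays limits the precision.

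Groups were compared with limma 3.58.1 (lmFit, eBayes) in R 4.3.3 over all genes, without covariates. In simulated data for this comparison (14884 genes, 200 changed) the fit recovered 0% of 2-fold and 43% of 4-fold changes with 0 false calls, and with the replicate block 33% and 73% with 1. The fits of the real data called 451 genes, and 1959 with the block. Both exceed the number changed in the simulation, so the shares recovered hold for that setting only.

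Replicate numbers come from the titles. Deviations from group means correlated at 0.56 to 0.68 between same-numbered arrays and at -0.48 to -0.01 between others, so the numbers were taken to pair the samples, and blocked values stand beside results whose call or count they change. The labels do not say what the number marks.

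The members and lists were chosen with earlier results of these data known. Keratins given array by array were those called in either fit, the 6 of highest mean, the 3 largest changes in each direction, and the breast markers KRT5, KRT7, KRT8, KRT14, KRT18 and KRT19 (KRT17 was not analysed here). Some others are given where a class needed them. Of the lists, genes past the threshold are named, up to 4 per list, with VIM and EPCAM.

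Alternatives were the block, leaving out arrays, quantile normalization, median centring, a filter on dim genes, a trended prior and the mean of a gene's features.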

Additional observations from a re-analysis of the deposited data

How the results depend on the processing

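The 2 keratin calls, KRT5 and KRT75, were kept with quantile normalization, a trended prior and the mean of all features of a gene, and 3 were made with the replicate block, the third being KRT19. Single calls remained with median centring (1, KRT75) and after removal of the 50% of genes with the lowest means (1, KRT75), where KRT5, KRT13, KRT14, KRT19 and KRT71 were not tested and no basal keratin was left. Between 0 and 2 keratins were called when a single array, or both arrays of a number (added after seeing the data), were left out. Without both arrays of replicate 1, which have the higher medians, KRT5 kept its call and KRT75 did not (-1.73, adjusted p = 0.0714). Over all settings KRT5 stayed between 1.29 and 2.28 and KRT75 between -2.09 and -1.56. The adjusted p of KRT5 ran from 0.0120 to 0.502 and was 0.0511 with median centring. KRT7, KRT8, KRT13, KRT18, KRT19 and KRT80 kept their direction in every setting that tested them. Leaving out arrays turned the direction of KRT10 (-0.035 to 0.58), KRT14 (-0.13 without decitabine replicate 3 and -0.19 without both arrays of replicate 3), KRT31 (-0.60 to 0.33, with 0.23 and 0.19 also turned) and KRT71 (-0.66 to 0.0783). None of the 47 members changed sign under quantile normalization or median centring. The share of called genes that rose was 66.3%, and 75.5% with median centring and 58.7% with quantile normalization. Calls among the partner genes numbered 6, and 15 with the block, 3 with median centring and 0 to 7 when arrays were left out.

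With the dimmer genes left out, median changes were 0.21 (type I), -0.40 (type II), 0.24 (suprabasal), -1.81 (inner root sheath and companion layer, KRT75 alone) and -0.15 (hair). Fewer genes were tested there. With arrays left out, medians ran from -0.12 to 0.21 for all keratins (-0.04 without both arrays of replicate 3), -0.11 to 0.27 for type I, -0.20 to 0.10 for type II, -0.19 to 0.45 for basal, 0.0475 to 0.51 for stress, -0.30 to 0.10 for luminal (-0.26 without a single array), -0.0883 to 0.14 for suprabasal, -0.11 to 0.19 for inner root sheath (-0.06 without both arrays of replicate 3) and -0.25 to 0.36 for hair keratins (0.08 without both arrays of replicate 2). No sign of these medians is therefore stable except that of the stress keratins, which are 2 genes. Signal over background was not used, and 39 of the 47 members lay below the median of all genes.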

Other observations

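Keratin pseudogenes lie outside the family as defined here, and 7 had a named feature. KRT16P2, a transcribed copy related to KRT16, had 5.97, 5.16 and 5.49 in decitabine and 5.57, 5.32 and 5.71 in untreated replicates 1 to 3, so its groups overlapped, with pairs of 0.40, -0.16 and -0.22. KRT42P had 3.52, 3.26 and 2.48 in decitabine and 3.89, 2.38 and 2.54 in untreated replicates 1 to 3. The differences between group means ran from -0.37 (KRT16P3 and KRT17P5) to 0.18 (KRT8P41) over the 7, as values with no test.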
